A study of Homo sapiens with 2 samples.

Results

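YAP1, its paralogue WWTR1 (the gene of the protein TAZ), the DNA-binding partners TEAD1 to TEAD4, the inhibitory kinases LATS1 and LATS2, and the target genes CCN1 (formerly CYR61) and CCN2 (formerly CTGF) were described in human liver progenitors. These 10 genes were chosen by name as effectors of the Hippo pathway, with earlier results of these data known. All 10 were found among the 57158 gene identifiers of the expression table. The cells came from CyT49, an established human embryonic stem cell line. They had been taken to definitive endoderm by day 2 and then kept in suspension for 6 days in RPMI medium with 50 ng/ml BMP4, 10 ng/ml FGF2 and 0.2% FBS, until collection at day 8. Both libraries of the series, 2 in all, belong to this 1 group, and there was no untreated, earlier or mature sample, so the values are levels, with no change over time or with treatment. The comparison of these cells with published transcriptomes, named in the series description, was not analysed here.

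In the Hippo pathway, the kinases MST1 and MST2 (genes STK4 and STK3) activate LATS1 and LATS2, which phosphorylate YAP and TAZ. Phosphorylated YAP and TAZ are held in the cytoplasm by 14-3-3 proteins or degraded, and unphosphorylated YAP and TAZ enter the nucleus and bind TEAD factors, which recognise the DNA word GGAATG. In mouse liver, loss of the upstream kinases or forced YAP activity enlarges the organ, and YAP is more active in biliary cells than in hepatocytes. The activity of YAP and TAZ is set largely by phosphorylation and location of the protein, which RNA levels do not measure.

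Levels are the authors' RPKM values, that is reads per kilobase of gene, set in proportion to the depth of the library. Every value under 0.5 RPKM was listed as 0.1, which is called the floor below. The normalization rested on 25182071 reads in library 1 and 25263820 in library 2. Over 952 single-exon genes the variance between the libraries was 1.09 times that of counting alone, so they were treated as 1 sample, and nothing in the labels says that they came from separate cultures. Detection means a value of at least 1 RPKM in each library. For the labelled identity, 10 liver progenitor markers were read, a list chosen with earlier results of these data known. All 10 reached 10 RPKM in both libraries, beside 20.2% of protein-coding genes. Among them, AFP (alpha-fetoprotein) had 707 and 705 RPKM and HNF4A 44.5 and 44.9 RPKM in libraries 1 and 2. The pluripotency genes POU5F1, NANOG and SOX2 were at the floor.

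Upstream sequences of some genes known as YAP and TAZ targets, and of YAP1 itself, are shown first. Only windows that hold the word read by TEAD factors were printed. Of 16 target genes with an entry, 8 did not hold the word, LATS2 among them. Each line gives the 250 bases before a transcript start of the gene in the RefSeq promoter table (GRCh38.p14), 5′ to 3′ on the strand of the gene. AMOTL2 had 2 windows in that table, of which 1 held the word and is shown; it lies before an inner start, within the span of the gene in the GENCODE annotation. Each matched GRCh37 (hg19), the build of the deposited values, at 1 place, and those positions are given. Capitals mark GGAATG, or CATTCC where the word lies on the other strand. CCN2 (chr6:132272513-132272762, minus strand), ANKRD1 (chr10:92680845-92681094, minus) and AMOTL2 (chr3:134093290-134093539, minus) are targets that were detected, FOXF2 (chr6:1389561-1389810, plus) is a target at the floor, and YAP1 lies at chr11:101980928-101981177 (plus).
CCN2: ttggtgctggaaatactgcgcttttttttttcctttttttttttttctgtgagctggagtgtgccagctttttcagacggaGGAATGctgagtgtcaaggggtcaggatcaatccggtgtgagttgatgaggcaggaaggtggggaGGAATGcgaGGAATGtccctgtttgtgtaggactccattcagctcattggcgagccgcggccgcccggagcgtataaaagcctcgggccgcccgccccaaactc
ANKRD1: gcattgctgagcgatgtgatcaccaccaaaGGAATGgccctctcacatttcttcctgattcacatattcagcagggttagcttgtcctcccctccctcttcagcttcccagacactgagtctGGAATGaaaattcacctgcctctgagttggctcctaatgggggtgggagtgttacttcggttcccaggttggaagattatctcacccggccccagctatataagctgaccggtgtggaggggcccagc
AMOTL2: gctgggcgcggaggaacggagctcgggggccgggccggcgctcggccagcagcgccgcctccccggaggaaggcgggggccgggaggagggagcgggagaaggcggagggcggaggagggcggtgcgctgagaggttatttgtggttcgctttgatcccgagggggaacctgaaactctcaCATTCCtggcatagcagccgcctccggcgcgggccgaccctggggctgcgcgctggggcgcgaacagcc
FOXF2: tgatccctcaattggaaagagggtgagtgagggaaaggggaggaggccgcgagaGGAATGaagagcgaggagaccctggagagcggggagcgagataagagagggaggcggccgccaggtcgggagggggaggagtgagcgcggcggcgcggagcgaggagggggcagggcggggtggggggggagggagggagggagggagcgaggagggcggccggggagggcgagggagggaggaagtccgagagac
YAP1: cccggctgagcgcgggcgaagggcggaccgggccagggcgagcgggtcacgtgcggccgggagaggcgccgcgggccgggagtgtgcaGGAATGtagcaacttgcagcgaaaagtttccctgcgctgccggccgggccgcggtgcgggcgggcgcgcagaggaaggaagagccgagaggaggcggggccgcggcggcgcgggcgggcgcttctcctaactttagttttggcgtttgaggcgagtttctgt

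The CCN2 window held the word 3 times, at 169 to 164, 104 to 99 and 95 to 90 bases before the start. The ANKRD1 window held it at 220 to 215 and 128 to 123 bases, AMOTL2 at 69 to 64 bases before its inner start, FOXF2 at 196 to 191 and YAP1 at 162 to 157 bases before the start. GGAATG on either strand stood in 8 of 18 windows of the target genes (44.4%) and in 11.9% of 35093 windows of the same length in the whole table. Of the 7 chosen effector genes with an entry, 2 held it, CCN2 and YAP1. By window, that was 2 of the 10 windows of these 7 genes (20%), beside the same 11.9%. TEAD1, TEAD4 and CCN1 had no entry. The letters alone do not show binding.

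All 10 genes were detected, beside 59.8% of 19344 protein-coding genes. All 10 also passed 0.5 RPKM, beside 65.1% of protein-coding genes, 7 reached 5 RPKM, beside 35.4%, and 6 reached 10 RPKM in both libraries, beside 20.2%. Their median was 12.2 RPKM, against 2.42 RPKM over all protein-coding genes. TEAD2 was the highest and WWTR1 the lowest, and WWTR1 was the only one of the 10 below the median of all protein-coding genes. RNA was extracted from the bulk culture, so a gene carried by fewer cells and a gene with less RNA per cell cannot be told apart.

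**Figure D1:**
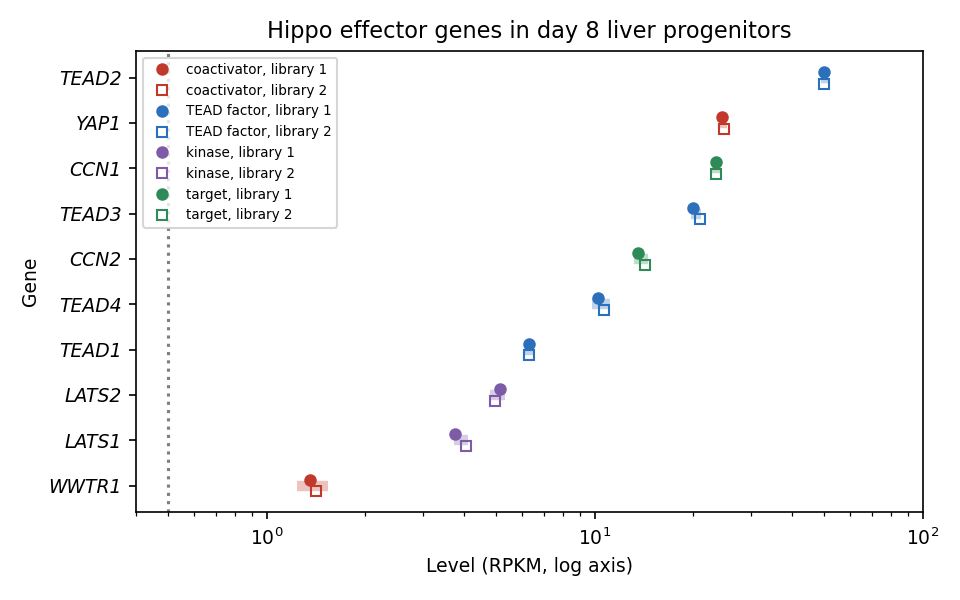
Level of each of the 10 genes in RPKM on a log axis, with filled circles for library 1, open squares for library 2 and bars for the approximate 95% counting interval of the mean. The dotted line marks 0.5 RPKM, under which values were listed as 0.1, and the genes run down from TEAD2 at 50.1 RPKM to WWTR1 at 1.38 RPKM.

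The 2 coactivators stood far apart. YAP1 had 24.5 RPKM in library 1 and 24.8 RPKM in library 2, and WWTR1 had 1.35 and 1.41 RPKM. The ratio of YAP1 to WWTR1 was 18.1-fold in library 1 and 17.6-fold in library 2, far wider than the difference between the libraries, and YAP1 made up 94.7% of the summed RPKM of the pair. YAP1 ranked 1472 of 19344 protein-coding genes and WWTR1 ranked 11091. YAP1 is ENSG00000137693.9, on the plus strand of chromosome 11 from 101981178 to 102104155 (GRCh37), and WWTR1 is ENSG00000018408.10, on the minus strand of chromosome 3 from 149235022 to 149454501.

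The size of that ratio depends on gene length, since the length behind each RPKM value is not given in the sources used here. With values rescaled from all annotated exon bases to the longest annotated transcript, WWTR1 came to 2.29 RPKM, YAP1 to 28.8 RPKM, and the ratio to 12.6-fold. Both lengths are those of GENCODE release 44, and the annotation behind the deposited values is not given. The 12.6-fold ratio is therefore 1 alternative and not a limit of the error from length. Read numbers depend on the same unknown length. If the deposited values rest on all exon bases, those of WWTR1 stood for about 285 reads in library 1 and 298 in library 2. Those of YAP1 then stood for about 3888 and 3958. If the deposited values already rest on the longest transcript, the numbers were about 172 and 179 for WWTR1 and 3328 and 3387 for YAP1. Approximate 95% counting intervals of the deposited means (exact Poisson, both libraries pooled) used these lower numbers. The interval was 1.24 to 1.53 RPKM for WWTR1 and 24.1 to 25.2 RPKM for YAP1, without rescaling. Such intervals cover counting error only. The processed pseudogenes YAP1P1 and YAP1P2, which could share reads with YAP1, were at the floor.

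All TEAD genes were detected, at 4 separate levels. TEAD2, the family member known from early mouse embryos and neural tissue, had 50.2 and 50.0 RPKM in libraries 1 and 2. TEAD3, known from placenta, had 19.9 and 20.9 RPKM. TEAD4, which is needed for the trophectoderm of the mouse embryo, had 10.2 and 10.7 RPKM, and TEAD1, which is needed for the mouse heart, had 6.32 RPKM in both. No library value of one TEAD gene overlapped that of another, and TEAD2 supplied 57.4% of the summed TEAD RPKM, TEAD3 23.4%, TEAD4 12.0% and TEAD1 7.24%.

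TEAD2 exceeded TEAD3 by 2.45-fold, TEAD3 exceeded TEAD4 by 1.95-fold, and TEAD4 exceeded TEAD1 by 1.65-fold. At the longest transcript length these folds were 2.94, 1.50 and 1.94, and the order of the 4 genes was kept. The summed level of the TEAD genes was 86.7 RPKM in library 1 and 87.9 RPKM in library 2, which was 3.36 and 3.35 times the summed level of YAP1 and WWTR1. On GRCh37, TEAD2 (ENSG00000074219.9) lies on chromosome 19 from 49843852 to 49865714 and TEAD3 (ENSG00000007866.14) on chromosome 6 from 35441374 to 35464856, both on the minus strand. TEAD4 (ENSG00000197905.4) lies on chromosome 12 from 3068496 to 3149842 and TEAD1 (ENSG00000187079.10) on chromosome 11 from 12695968 to 12966284, both on the plus strand.

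LATS1 and LATS2, which phosphorylate YAP and TAZ, stood below YAP1 and close to each other. LATS2 had 5.13 RPKM in library 1 and 4.95 in library 2, and LATS1 had 3.76 and 4.06. LATS2 stood above LATS1 in both libraries, by 1.36-fold and 1.22-fold, but at the longest transcript length the ratio was 1.13-fold, so the gap is within what the choice of length can move. LATS1 also had the widest difference between libraries among the 10 genes, 0.11 on the log2 scale, where the median of 11091 detected protein-coding genes at or above the WWTR1 level was 0.04 and their 95th percentile 0.19. LATS2 (ENSG00000150457.7) lies on chromosome 13 from 21547175 to 21635725 and LATS1 (ENSG00000131023.8) on chromosome 6 from 149979289 to 150039241, both on the minus strand.

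CCN1 and CCN2 encode secreted matrix-associated proteins and are widely used readouts of YAP, TAZ and TEAD activity. CCN1 had 23.5 RPKM in both libraries, and CCN2 had 13.5 and 14.2 RPKM. CCN1 was 1.69-fold above CCN2, and 2.03-fold at the longest transcript length. Of the 6 genes of the CCN family, only these 2 were detected, beside 59.8% of protein-coding genes. CCN3, CCN5 and CCN6 were at the floor in both libraries, and CCN4 was at the floor in library 1 and at 0.53 RPKM in library 2. CCN1 (ENSG00000142871.11) lies on the plus strand of chromosome 1 from 86046444 to 86050272 and CCN2 (ENSG00000118523.5) on the minus strand of chromosome 6 from 132269316 to 132272512.

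From high to low, the order was TEAD2, YAP1, CCN1, TEAD3, CCN2, TEAD4, TEAD1, LATS2, LATS1 and WWTR1. In none of the 9 neighbouring pairs did the library values overlap. YAP1 and CCN1 were the only neighbours with overlapping 95% counting intervals, 24.1 to 25.2 RPKM for YAP1 and 22.7 to 24.3 RPKM for CCN1, so their order is not resolved. CCN2 and TEAD4 changed places at the longest transcript length, where both came to 13.9 RPKM. The libraries were stranded, but whether reads were counted by strand is not given in the sources used here. Of 15 genes that overlap 6 of the 10 loci, among them WWTR1-AS1, LATS2-AS1 and LINC01013 beside CCN2, all were at the floor. Of all 57158 identifiers, 39548 were at the floor in library 1 and 39542 in library 2, and most of the 15 are noncoding genes. Whether reads from overlapping genes entered the values of the 10 genes was not tested.

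**Figure D2:**
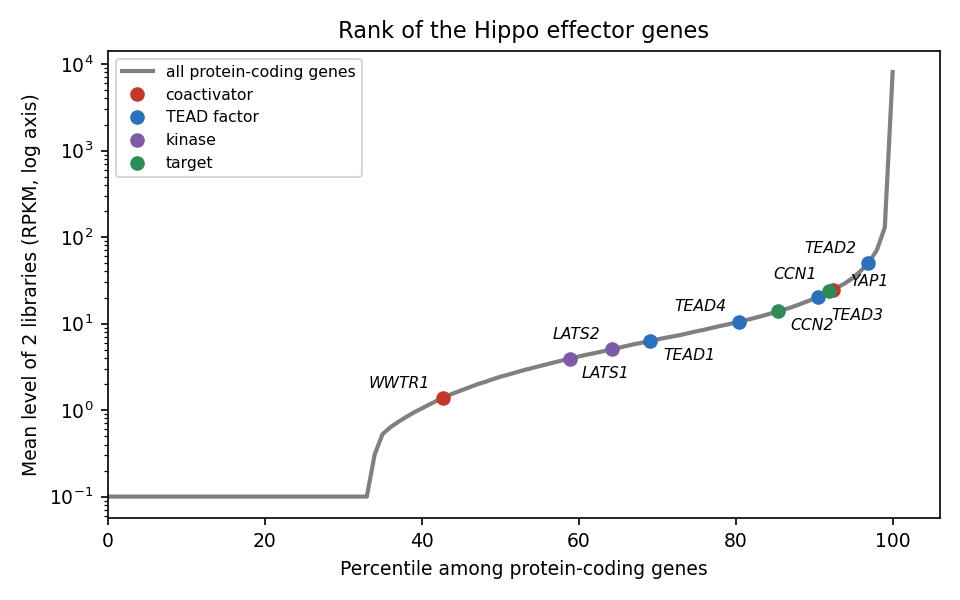
Mean level of the 2 libraries in RPKM (log axis) against percentile among 19344 protein-coding genes, with the 10 genes as coloured points on the grey curve of all genes. The points run from percentile 42.7 for WWTR1 to 96.9 for TEAD2.

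The kinase cassette and scaffolds above YAP and TAZ were all detected, 17 of 17 beside 59.8% of protein-coding genes, with a median of 5.04 RPKM. Only 2 of the 17 reached 10 RPKM in both libraries, a lower share than the 20.2% of protein-coding genes. LATS1 and LATS2 are among these 17. MAP4K4, a kinase that can act on LATS1 and LATS2 in parallel to MST1 and MST2, was highest at 34.9 and 34.8 RPKM in libraries 1 and 2. STK38 (NDR1, a kinase related to LATS) had 10.5 and 11.1 RPKM, the scaffold WWC2 10.1 and 9.29, and the LATS activator MOB1A 9.32 and 9.77. STK3 was lowest at 1.10 and 1.28 RPKM, followed by STK38L at 2.98 and 2.86 and TAOK3 at 3.47 and 3.44 RPKM. Chosen after the values were seen, for their place in the cassette, STK4 had 3.79 and 3.77 RPKM, the MST adaptor SAV1 3.79 and 4.21, and NF2, the merlin scaffold, 6.10 and 5.85 RPKM. In mean level, 16 of the 17 genes stood below YAP1.

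STRIPAK is a phosphatase complex that dephosphorylates MST1 and MST2, and all 11 of its listed genes were detected, beside 59.8% of protein-coding genes. The PP2A scaffold PPP2R1A was highest at 59.1 and 58.9 RPKM in libraries 1 and 2, followed by the striatin STRN4 at 20.5 and 20.9. The catalytic subunit PPP2CA had 19.8 and 20.5 RPKM. STRIP2 was lowest at 1.10 and 1.18 RPKM, followed by SLMAP at 2.27 and 2.32 RPKM. PP2A subunits also serve other complexes.

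Genes of junctions and polarity that feed into LATS and YAP were detected in 17 of 19 cases, beside 59.8% of protein-coding genes, with a median of 13.3 RPKM. The alpha-catenin CTNNA1 was highest at 51.0 and 50.9 RPKM in libraries 1 and 2. AMOT (angiomotin, which binds YAP at junctions) had 32.5 and 31.0 RPKM, the large cadherin DCHS1 21.2 and 21.4, and LLGL2 18.0 and 18.5. DCHS2 was at the floor, FAT4, the ligand-receptor partner of DCHS1, had 0.62 and 0.51 RPKM, and FRMD6 had 1.53 and 1.67 RPKM. FAT1, named after its values were seen, had 13.2 and 13.4 RPKM, so that FAT1 stood above FAT4 and DCHS1 above DCHS2.

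Of 13 genes for cytoplasmic retention and degradation of YAP and TAZ, 12 were detected, beside 59.8% of protein-coding genes, with a median of 28.8 RPKM. The 14-3-3 genes led, with YWHAE at 156 and 155 RPKM and YWHAQ at 107 and 109 RPKM in libraries 1 and 2. SFN (14-3-3 sigma, an epithelial isoform) was at the floor. BTRC and FBXW11, the substrate receptors of the ubiquitin ligase that degrades YAP and TAZ, had 6.27 and 6.15 RPKM and 11.8 and 12.0 RPKM. These genes serve many pathways.

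Of the cofactors and competitors at TEAD, 5 of 13 were detected, beside 59.8% of protein-coding genes, and the list median was 0.71 RPKM. VGLL4, which competes with YAP for TEAD, was the highest of the list with 9.34 and 9.64 RPKM in libraries 1 and 2, and VGLL1, VGLL2 and VGLL3 were at the floor. The AP-1 subunits JUN and FOS, which bind beside TEAD at enhancers, had 8.78 and 8.43 RPKM and 4.56 and 4.07 RPKM, and FOSL1 was at the floor. The coactivators NCOA1 and NCOA3 had 5.91 and 5.77 RPKM and 4.38 and 4.53 RPKM. Among DNA-binding partners of YAP outside the TEAD family, RUNX1 and RUNX3 were at the floor, RUNX2 had 0.67 and 0.74 RPKM, and TP73 had 0.86 and 0.99 RPKM.

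**Figure D3:**
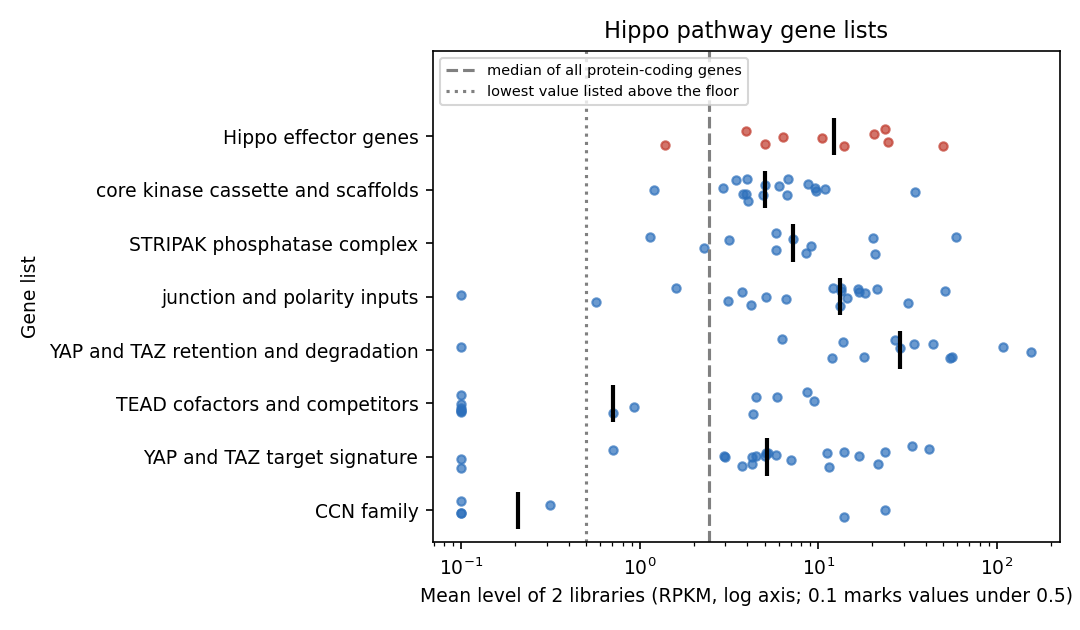
Mean level of the 2 libraries in RPKM (log axis) for every gene of 8 lists, with red points for the 10 effector genes, blue points for the other lists and black bars for list medians. The dashed line is the median of all protein-coding genes, 2.42 RPKM, and the list of TEAD cofactors and the CCN family are the only lists of these 8 with a median under it; CCN4, at the floor in 1 library, is drawn at the mean of 0.1 and 0.53 RPKM.

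A list of 22 YAP and TAZ target genes was measured, which shares CCN1, CCN2 and LATS2 with the 10 effector genes. Of the 22, 19 were detected, beside 59.8% of protein-coding genes, with a median of 5.15 RPKM. Without the 3 shared genes, 16 of 19 were detected and 6 reached 10 RPKM in both libraries, beside 59.8% and 20.2% of protein-coding genes. ANKRD1, a muscle ankyrin repeat protein and a common YAP readout, was highest at 42.1 and 41.4 RPKM in libraries 1 and 2. IGFBP3, a secreted carrier of insulin-like growth factors, had 34.0 and 32.7 RPKM and the membrane protein MYOF (myoferlin) had 21.5 and 21.4 RPKM.

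AMOTL2, an angiomotin that restrains YAP and is itself a target, had 17.3 and 16.5 RPKM; it is named after its values were seen, for the sequence above. The genes not detected were FOXF2, a mesenchymal forkhead factor, and NT5E (CD73), both at the floor, and DOCK5 at 0.69 and 0.73 RPKM. In 16 targets with a promoter entry, the 8 with GGAATG in a window had a median of 5.15 RPKM and the 8 without it 4.38 RPKM. FOXF2 held the word and was at the floor, and IGFBP3 and MYOF did not hold it in this window. Several targets are known to have other inputs as well, such as serum response factor, so their levels are not a measure of YAP and TAZ alone.

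**Figure D4:**
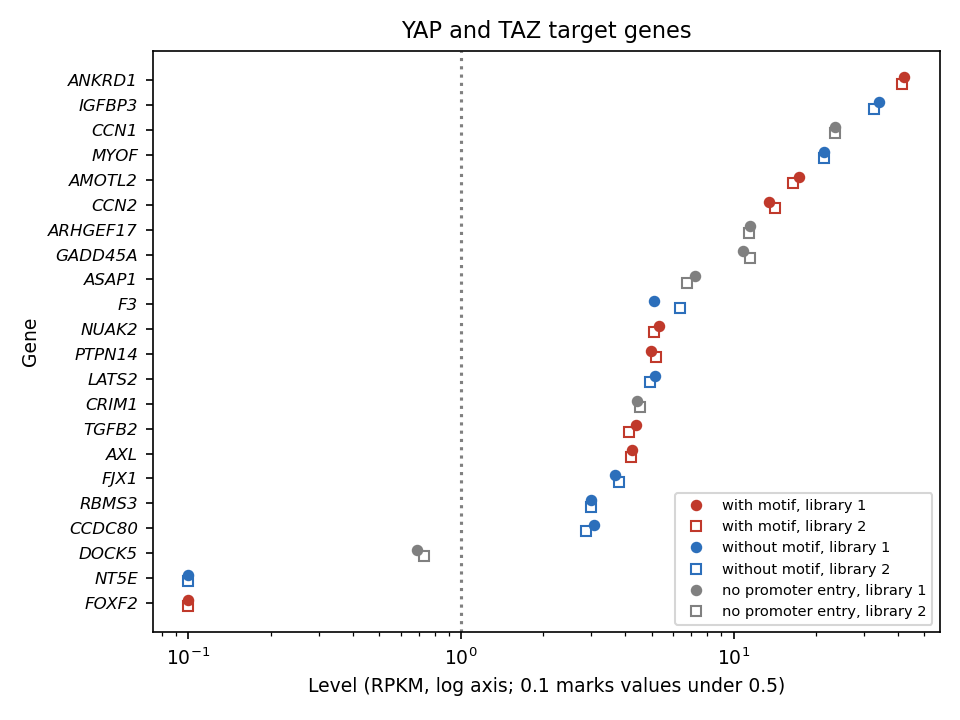
Level of the 22 target genes in RPKM on a log axis, with filled circles for library 1 and open squares for library 2, coloured by whether a promoter window held GGAATG on either strand. Red and blue points are mixed along the range, from ANKRD1 at 42.1 and 41.4 RPKM down to FOXF2 and NT5E at the floor, and the dotted line marks 1 RPKM.

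Several of these genes are also abundant in other cell types that the culture could hold, and markers of those cells were read beside them, against a detected share of 59.8% over all protein-coding genes. Of 13 mesenchyme markers, 5 (38.5%) were detected, with a summed level of 31.7 RPKM in library 1 and 31.8 in library 2. TAGLN was highest at 12.0 and 11.8 RPKM, and COL1A1 had 8.29 and 8.30 RPKM. COL1A2 had 5.18 and 5.09 RPKM, LUM 3.39 and 3.16, and PDGFRB 2.06 and 2.22. ACTA2 was at the floor in library 1 and at 0.56 RPKM in library 2. COL3A1, DCN, DES, TWIST1, TWIST2, WT1 and LHX2 were at the floor in both. Of 11 trophoblast markers, 4 (36.4%) were detected, with a summed level of 149 and 154 RPKM, of which CGA made up most at 133 and 138 RPKM. GATA3 had 10.3 RPKM in both libraries, HLA-G 2.33 and 2.21 RPKM, and CDX2 2.13 and 2.11 RPKM. ELF5, TFAP2A, TFAP2C, TP63, KRT7, CGB5 and PSG1 were at the floor.

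Endothelial markers were detected in 1 of 6 cases (16.7%, beside 59.8% of protein-coding genes), KDR at 1.60 and 1.61 RPKM, with a summed level of 2.10 and 2.11 RPKM. Of 7 cholangiocyte markers, 4 (57.1%) were detected, a share near that of all protein-coding genes. Their summed level was 436 and 442 RPKM, of which KRT19 made up 406 and 411 RPKM. KRT19 is also on the list of liver progenitor markers, so this sum does not set the 2 cell types apart. KRT7 is also on the trophoblast list. SOX9 had 9.04 and 9.90 RPKM, SPP1 had 17.3 and 17.5, CFTR had 2.56 and 2.95, and KRT7 and SCTR were at the floor. The part of such cells in the levels of CCN1, CCN2, TEAD4 and the other effector genes was not tested.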

How the data were processed

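Strand-specific libraries were made from poly(A) RNA of 2 µg of total RNA with 15 cycles of PCR, per the labels' protocols. The deposited table holds 1 RPKM value per gene and library, which the authors had scaled to length and depth. FastQC 0.10.1, STAR 2.3.0e and Cufflinks 2.2.0 are named in the submitters' processing notes, and Sailfish and hg19 in the series description. The sources used here do not give the tool behind the RPKM values, its annotation or whether reads were counted by strand. PCR reads without molecular identifiers are not independent molecules.

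Between 0.1 and 0.5 RPKM no value was found, and 0.1 was listed for 39548 genes in library 1 and for 39542 in library 2. On a gene of 2000 bp, 0.5 RPKM stands for 25.2 reads in library 1. Depth was read from the spacing of single-exon gene values, of which 83.5% and 83.7% gave whole reads within 0.02. Library agreement used single-exon genes with whole reads and a mean of 50 or more, and the calculation was tested on simulated data. Read numbers for genes with several exons are approximate, so no count model was used and no test was made.

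Identifiers were joined without version to GENCODE release 44 on GRCh37, and 54428 (95.2%) matched. The background was protein-coding symbols, with the identifier of highest mean. The 10 genes and the 14 lists were chosen with earlier results of these data known. Of 151 symbols listed, 2 have no value here. The text names all 10 genes, any member of a list of 13 or fewer, and the 4 highest and 3 lowest of longer lists, and says where a gene was chosen otherwise. Alternatives were the detection limit, a pseudocount, transcript length, the background and each library alone. Python 3.11.15, pandas 2.3.3 and scipy 1.17.1 were used.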

Additional observations from a re-analysis of the deposited data

How the results depend on the processing

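The length behind each RPKM value is unknown. At the longest transcript length, the log2 ratios were 3.65 for YAP1/WWTR1, 1.55 for TEAD2/TEAD3, 0.58 for TEAD3/TEAD4, 0.95 for TEAD4/TEAD1, 0.18 for LATS2/LATS1 and 1.02 for CCN1/CCN2, against 4.16, 1.30, 0.96, 0.73, 0.37 and 0.76 as reported. With a pseudocount of 1 RPKM, 3 of the 6 moved beyond the spread between libraries, to 3.43 for YAP1/WWTR1, 0.90 for TEAD3/TEAD4 and 0.65 for TEAD4/TEAD1. No ratio changed direction. At a detection limit of 5 RPKM, 11 of 22 targets and 8 of 17 kinase cassette genes passed, beside 35.4% of protein-coding genes, and 7 of the 10 effector genes did.

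With each library left out in turn, the ratios ran from 4.14 to 4.18 for YAP1/WWTR1, 1.26 to 1.33 for TEAD2/TEAD3, 0.96 to 0.97 for TEAD3/TEAD4, 0.70 to 0.76 for TEAD4/TEAD1, 0.29 to 0.45 for LATS2/LATS1 and 0.72 to 0.80 for CCN1/CCN2. Detection stayed at 10, 19 and 17 genes. Among detected genes alone, percentiles ran from 4.19 for WWTR1 to 94.9 for TEAD2. No paired analysis was possible because the series holds 1 group.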

Other observations

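YAP1 lies in a region of chromosome 11 that is amplified together with BIRC2 in some liver cancers, so the protein-coding genes within 300 kb of it were read as well, a choice made after the values were seen. BIRC2, an inhibitor of apoptosis, had 10.4 RPKM in library 1 and 10.2 RPKM in library 2, and its neighbour BIRC3 was at the floor. TMEM123 had 52.3 and 51.8 RPKM, above YAP1 at 24.5 and 24.8 RPKM. CEP126 had 0.73 and 0.76 RPKM, and TRPC6, ANGPTL5, CFAP300 and MMP7 were at the floor. Of the 9 genes in the window, YAP1 included, 3 were detected, beside 59.8% of all protein-coding genes. Copy number was not measured.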
